A study of Mus musculus with 4 samples.

Results

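The genes described here are the neurotrophins *Bdnf* and *Ntf3*, the ligand *Gdnf*, the receptor tyrosine kinases *Ntrk2* (TrkB), *Ntrk3* (TrkC) and *Ret*, the pan-neurotrophin receptor *Ngfr* (p75NTR), the GPI-anchored co-receptor *Gfra1* and the sorting receptor *Sort1*, 9 genes in all. They were chosen by name, and their members are the rows of 3 deposited tables of m6A peaks that carry these gene names. Of the 9 genes, 8 had a row, among 13558 gene names in the tables. *Gdnf* had none and was counted as having no peak.

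Neurotrophins bind Trk receptors, which signal through adaptor proteins to growth and survival pathways, and all of them also bind p75NTR. GDNF first binds GFRα1, and the complex engages RET. Sortilin, the product of *Sort1*, binds proneurotrophins together with p75NTR and sorts BDNF inside the neuron. In the dorsal horn, BDNF acting on TrkB is a well-known driver of sensitisation after nerve injury, and several of these receptors are made as full-length and truncated forms that differ in their last exons and 3′-UTRs.

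Spinal cords were taken 7 days after surgery from C57BL/6J mice that were 6 to 8 weeks old. The surgery was a chronic constriction injury (CCI) of the sciatic nerve, made with loose silk ties, or a sham operation that left the nerve untied. In MeRIP-seq, RNA fragments pulled down with an antibody against m6A (IP) are compared with the RNA before pull-down (input). Each group had 1 IP and 1 input library, so no value below has a replicate error and no difference between CCI and sham could be tested. In bulk tissue, fewer cells of a type and less RNA per cell cannot be told apart, and the number of mice behind each library is not given in the sources used here.

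The CCI list held 33556 peaks and the sham list 34406. All values below are deposited fold enrichments (IP over input), with a median over every peak of 5.72 in the CCI list and 5.7 in the sham list. Read depth is unknown, because the tables hold no read counts. All 20 marker genes looked up as a check of the tissue label (neurons, motor neurons, glia, endothelium, Schwann cells and spinal position) had a peak in both lists. Coordinates are those of the tables, whose build is GRCm38 by the submitters' processing notes.

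The 8 genes carried 49 peaks in CCI and 46 in sham, at 43 and 41 separate sites once rows of a list that share bases are counted together. *Ntrk3* had the most peaks, 16 in CCI and 13 in sham, followed by *Ntrk2* with 10 in each list. Counted as separate sites, *Ntrk3* had 12 in CCI and 10 in sham, and *Ntrk2* had 10 in each list. *Sort1* had 7 and 7 peaks, *Gfra1* 5 and 6, *Ngfr* 5 and 4, *Ret* 3 and 3, and *Ntf3* 2 and 2. *Bdnf* had a single peak in each list. The median gene of either list had 2 peaks. The peak count of *Ntrk3* stood at the 99.8 percentile of all genes of the CCI list and that of *Ntrk2* at the 98.7 percentile. These percentiles count overlapping rows separately.

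**Figure D1:**
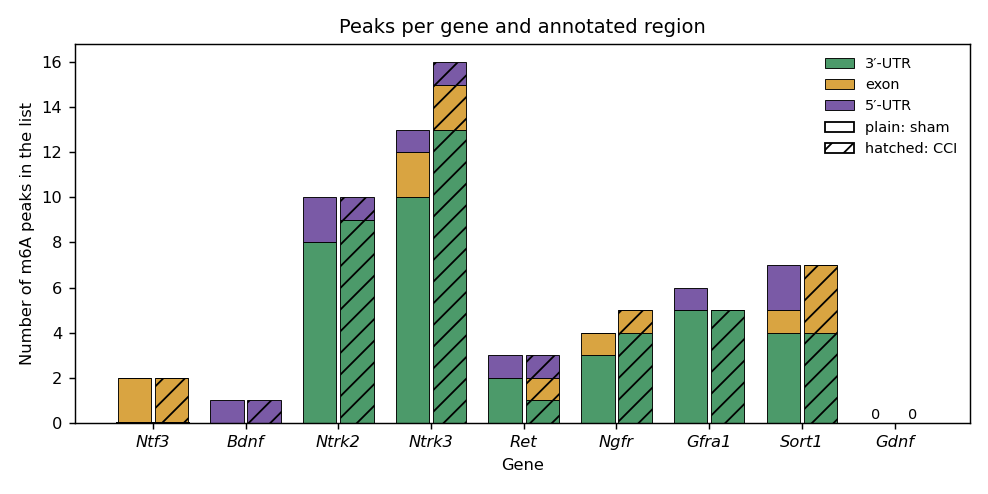
Number of m6A peaks (vertical axis) of each gene in the sham list (plain bars) and the CCI list (hatched bars), split by the annotated region. The bars of *Ntrk2* and *Ntrk3* are the tallest, with 9 and 13 of their CCI peaks in the 3′-UTR, and *Gdnf* has 0 in both lists.

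Most of these peaks lay in a 3′-UTR, 36 of 49 in CCI (73.5%, 95% Wilson interval 59.7 to 83.8%, counting error only) and 32 of 46 in sham (69.6%, 55.2 to 80.9%). Over all peaks the shares were 49.8% and 48.9%. The difference came largely from *Ntrk2* and *Ntrk3*, which gave 22 of the 36 CCI peaks and 18 of the 32 sham peaks. Without these genes 14 of 23 peaks of either list were in a 3′-UTR (60.9%, 40.8 to 77.8%), an interval that holds the share of all peaks. Peaks of 1 gene share its transcript and are not independent.

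Nearly every site was found in both lists. By an overlap of at least 1 exonic base, 44 of the 49 CCI peaks (89.8%, 78.2 to 95.6%) overlapped a sham peak, and 43 of the 46 sham peaks (93.5%, 82.5 to 97.8%) overlapped a CCI peak. The shares over all peaks, 87.7% and 83.9%, lay inside these intervals. The 5 CCI peaks without a sham peak belonged to *Ntrk2* (2), *Ntrk3*, *Ngfr* and *Gfra1*. The 3 sham peaks without a CCI peak belonged to *Gfra1* (2) and *Ntrk2*.

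Taking a CCI peak and a sham peak as a pair when each was the best match of the other gave 39 pairs. CCI was higher in 18 pairs and lower in 21, with a median log2 ratio of CCI to sham of -0.05, against 0.03 over all 27380 pairs of the lists. A change of at least 2-fold was reached upward by 1 of the 39 pairs (2.56%), against 8.59% of all pairs. It was reached downward by 6 of 39 (15.4%), against 7.25% of all pairs. The 6 lower pairs were at 5 sites of 3 genes, *Gfra1*, *Ntrk3* and *Sort1*. Of the 13 pairs with the same borders in both lists, 1 was at least 2-fold lower and 0 higher, against 4.16% and 7.31% of all pairs with the same borders. Counted by gene, 1 of 8 (12.5%) had a pair at least 2-fold higher, against 18.2% of all genes with a pair, and 3 of 8 (37.5%) had a pair at least 2-fold lower, against 15.5%. No adjustment was made for the number of pairs per gene, with 39 pairs in these 8 genes and 27380 in all 11639. Of the 39 pairs, 35 lay inside the middle 95% of all pairs (log2 ratio from -1.59 to 1.75).

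**Figure D2:**
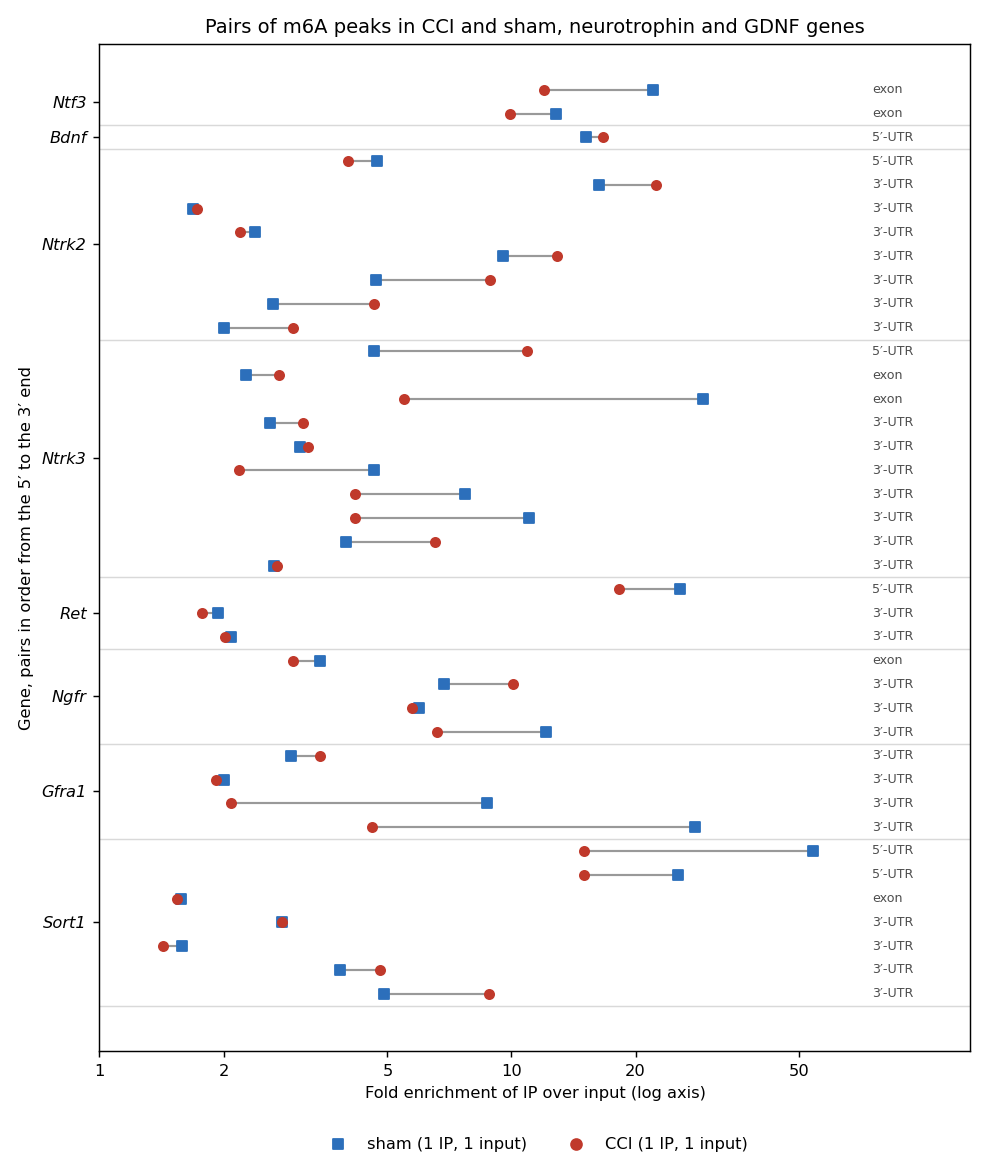
Fold enrichment of IP over input (log axis) of the 39 pairs of peaks in sham (squares) and CCI (circles), in order from the 5′ to the 3′ end of each gene (*Gfra1* and *Sort1* each have 2 pairs over the same bases), with the region of the sham peak at the right. The longest lines, with CCI on the left, are pairs of *Gfra1* (4.59 and 27.9, and 2.08 and 8.72), *Ntrk3* (5.47 and 29.1) and *Sort1* (15 and 53.8). The last 4 pairs of *Ntrk2* all have CCI on the right.

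The width of the peaks went together with the direction. In 16 of the 39 pairs the CCI peak covered fewer exonic bases than its sham partner, and 14 of these were lower in CCI (median log2 ratio -0.82). Of the 15 pairs of equal width, 10 were higher and 5 lower (median 0.03), and of the 8 pairs in which the CCI peak was wider, 6 were higher (median 0.35). The same was seen over all pairs, of which 65.9% were lower where the CCI peak was narrower and 26% where it was wider. Of the 6 member pairs at least 2-fold lower, 5 had a narrower CCI peak. The part that peak borders play in the ratios was not tested.

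Among the ligands, *Bdnf* differed little between the groups and *Ntf3* was lower in CCI at both of its sites. The *Bdnf* peak, chr2:109723391-109724168, covered 778 bases with the same borders in both lists. Its fold enrichment was 16.7 in CCI and 15.2 in sham (log2 ratio 0.14), which was at the 60.8 percentile of the 1370 pairs with a like IP signal. The table annotates this peak as 5′-UTR, although it lies 48.7 kb from the start of the transcript and 2.8 kb from its 3′ end, in the part of the gene where the coding exon common to all *Bdnf* transcripts is located.

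*Ntf3*, which encodes neurotrophin-3, the main ligand of TrkC, had 2 peaks annotated as exon within 1 kb of the transcript's 3′ end. At chr6:126101766-126101855 the fold enrichment was 9.9 in CCI and 12.8 in sham (log2 ratio -0.37). At chr6:126102062-126102239 it was 12 in CCI and 22.1 in sham (-0.88). Both sites were called on weak evidence, with log10 p-values of IP against input of -2.58 and -3.23 in CCI, against a median of -16.4 over all CCI peaks. Both CCI peaks were narrower than their partners, 90 against 149 bases and 178 against 385. *Gdnf*, which lies at chr15:7810048-7837580 in RefSeq, had no row in any table, and whether its RNA was present in the input was not analysed here.

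*Ntrk2* is made as a full-length TrkB and as truncated receptors without the kinase domain, which astrocytes carry in abundance. Its peaks fell into 3 groups along the gene, and the direction differed among them. At the 3′ end of the longest transcript, within the last 6 kb, all 4 pairs were higher in CCI (median log2 ratio 0.69, range 0.44 to 0.92). At the 3 shared sites in inner 3′-UTRs, at least 198 kb upstream, the log2 ratios ran from -0.12 to 0.46 with a median of 0.03. At the 5′-UTR the single pair was lower.

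The widest *Ntrk2* peak, chr13:59128219-59129776, had a fold enrichment of 12.9 in CCI and 9.54 in sham (log2 ratio 0.44), with log10 p-values of -424 and -402, and it stops 189 bases before the 3′ end of ENSMUST00000225488. The next, chr13:59130795-59131064, had the same borders in both lists and values of 8.85 and 4.68 (0.92). At chr13:59131424-59131604 the values were 4.64 and 2.64 (0.81), and at chr13:59133221-59133371 they were 2.95 and 2 (0.56). All 4 were thus higher in CCI, and each stayed under 2-fold and inside the middle 95% of pairs with a like IP signal. The first lies before the end of ENSMUST00000225488 and the other 3 beyond it, in ENSMUST00000079828. They come from 1 gene and 1 pair of libraries per group and are not 4 independent observations. The CCI peak was wider than its partner at 3 of the 4 sites, 1558 against 1379 bases, 181 against 151 and 151 against 121. Inside the widest CCI peak the sham list had a second row, chr13:59129656-59129776, with a fold enrichment of 2.17, which formed no pair. The CCI list had 1 more peak at the very end, chr13:59133910-59133970, with a fold enrichment of 4.17, and the sham list had no peak there.

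The strongest enrichment of *Ntrk2* was in an inner 3′-UTR, chr13:58887752-58887962, at 22.4 in CCI and 16.3 in sham (log2 ratio 0.46). It lies 246 kb before the end of the longest transcript and 517 bases before that of ENSMUST00000225583, the one it is nearest to. At chr13:58935489-58935578 the values were 1.72 and 1.69, and at chr13:58935818-58935908 they were 2.19 and 2.38. These last 2 inner sites were nearly equal in CCI and sham, while the first was higher in CCI by about as much as the widest peak at the 3′ end. A further inner peak, chr13:58932134-58932283, with a fold enrichment of 1.91, was in the CCI list alone and lies 837 bases before the end of ENSMUST00000224259.

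In the 5′-UTR of *Ntrk2*, chr13:58808456-58808725, the fold enrichment was 4.01 in CCI and 4.72 in sham with the same borders (log2 ratio -0.24). The sham list had another 5′-UTR peak, chr13:58806599-58806749, with a fold enrichment of 3.49 and no CCI peak over it. Fold enrichment is set against the input of the same group, so it does not give the level of either transcript form, which was not analysed here.

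*Ntrk3*, the receptor of neurotrophin-3, showed no common direction, with 6 pairs higher and 4 lower and log2 ratios from -2.41 to 1.23. A row of 3 neighbouring sites, 14.5 to 16.6 kb before the 3′ end of the longest transcript, was lower in CCI throughout. Around them, sites nearer the end and at the inner 3′-UTR were equal or higher. The 5′ end held both the largest rise in fold enrichment among all 39 pairs and one of the largest falls.

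At chr7:78190714-78191014 the fold enrichment was 4.17 in CCI and 11 in sham (log2 ratio -1.40). At chr7:78191613-78191793 it was 4.17 and 7.7 (-0.88), and at chr7:78192385-78192475 it was 2.18 and 4.65 (-1.09). All 3 were narrower in CCI, 301 against 627 bases, 181 against 300 and 91 against 211, and their log10 p-values were -5.48, -5.07 and -2.79 in CCI against -17.8, -17.2 and -14.6 in sham. Each list has overlapping rows here, and in CCI 1 of them, over the downstream part of the first site, had a fold enrichment of 9.9. That row formed no pair, so the size of the difference at this site depends on which row is read.

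Toward the end of the longest transcript, the values were 6.52 in CCI and 3.96 in sham at chr7:78185735-78185915 (log2 ratio 0.72), and 2.69 and 2.65 at chr7:78177428-78177548 (0.02), both with the same borders in both lists. Between them the CCI list had a peak without a sham partner, chr7:78178898-78179078, with a fold enrichment of 12.5, the highest of any *Ntrk3* peak in CCI. This peak and the one after it lie beyond the RefSeq end of *Ntrk3*, at 78179986, and inside the transcript the table assigns them to. At the end of a shorter transcript, ENSMUST00000039438, at sites 125.6 kb or more before the end of the longest, the values were 3.21 and 3.06 (0.07) and 3.11 and 2.59 (0.26).

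**Figure D3:**
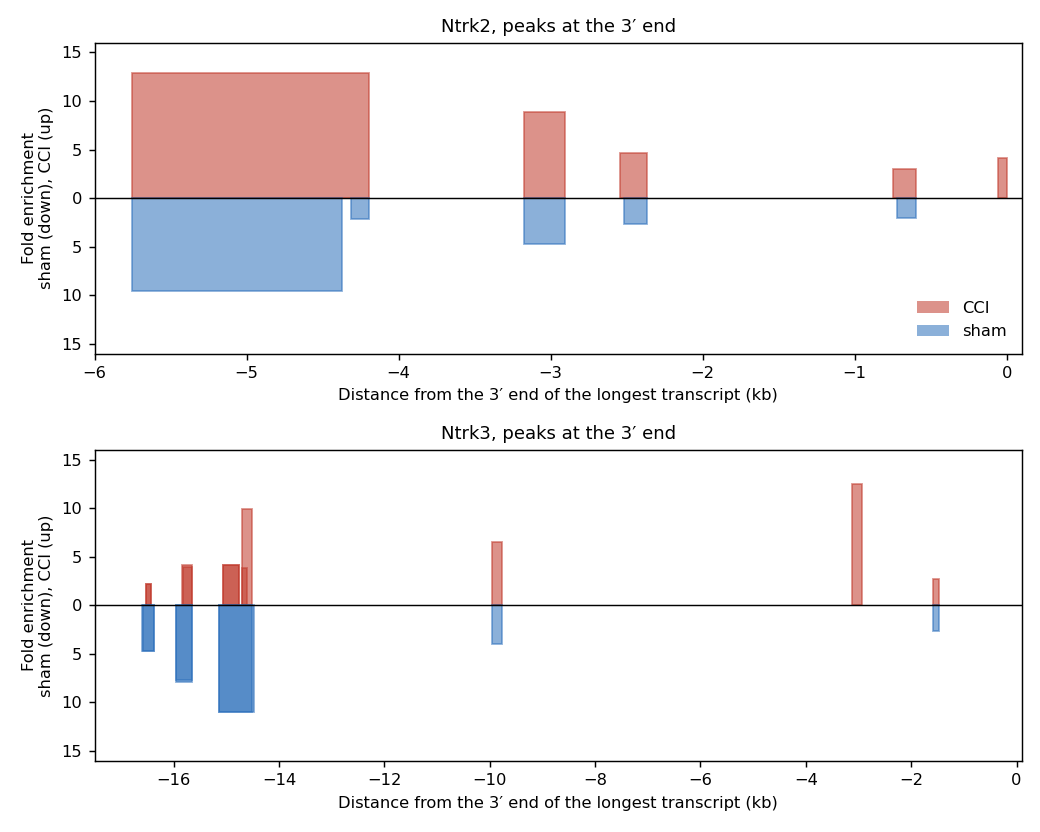
Fold enrichment (vertical axis, CCI upward and sham downward) of the peaks near the 3′ end of *Ntrk2* (upper panel) and *Ntrk3* (lower panel) against the distance from the end of the longest transcript in kb, with bar width equal to the span of the peak and darker shading where rows of a list overlap. The CCI bars of *Ntrk2* are taller at each of the 4 shared sites, while the *Ntrk3* bars beyond 14 kb from the end are taller in sham, where they reach 11 against at most 9.9 in CCI.

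In the 5′-UTR of *Ntrk3*, chr7:78577883-78578062, the fold enrichment was 10.9 in CCI and 4.65 in sham (log2 ratio 1.23). This was the only pair at least 2-fold higher in CCI among the 39, and the CCI peak was wider, 180 against 61 bases. Its log10 p-values of IP against input were -8.15 in CCI and -3.24 in sham, against medians of -16.4 and -17.9 over all peaks. At chr7:78571759-78571819 the values were 5.47 and 29.1 (log2 ratio -2.41), from a CCI peak of 61 bases and a sham peak of 121. The log10 p-values there were also weak, -4.86 in CCI and -9.19 in sham. The neighbouring peak, chr7:78571879-78577643, had values of 2.72 and 2.27 (0.26). These last 2 sites also lie over Gm39038, a lncRNA in RefSeq, and the labels name dUTP libraries but not whether peak calling used strand, so reads of the 2 genes may not be told apart.

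*Ret*, the kinase that signals for GDNF, was slightly lower in CCI at each of its 3 sites. Its 5′-UTR peak, chr6:118197209-118197598, had a fold enrichment of 18.2 in CCI and 25.6 in sham (log2 ratio -0.49). The other 2 sites, near the 3′ end, had values of 1.77 and 1.94 (-0.13) and of 2.02 and 2.09 (-0.05). All 3 lay inside the middle 95% of pairs with a like IP signal.

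*Gfra1*, the co-receptor that binds GDNF for RET, held the largest fall in fold enrichment among the 39 pairs. It was at the last bases of the transcript, chr19:58235604-58236023, where the borders were the same in both lists and the values were 4.59 in CCI and 27.9 in sham, or 6.08 times higher in sham (log2 ratio -2.60). This pair stood at the 0.833 percentile of the 1380 pairs with a like IP signal. The log10 p-values of IP against input were -17.1 in CCI and -13 in sham, so the far higher fold enrichment in sham did not come with stronger evidence for the peak.

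A second row of each list covers nearly the same bases of *Gfra1*, with values of 2.08 in CCI and 8.72 in sham (log2 ratio -2.07). Within the sham list, the fold enrichment of these bases was therefore 27.9 or 8.72 depending on the row, and within the CCI list 4.59 or 2.08. All 4 values place sham above CCI, but the rows differ by 1.68 on the log2 scale in sham and by 1.14 in CCI. The second sham row also takes in a block at chr19:58204369 that lies 31.2 kb beyond the end of *Gfra1*. Over the whole list, rows over the same bases usually gave close values. Their median difference was 0.03 on the log2 scale in 2294 such cases of the sham list, of which 4.27% differed at least 2-fold.

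Upstream in the 3′-UTR of *Gfra1*, 2 shared sites hardly differed, with values of 1.92 in CCI and 2 in sham (log2 ratio -0.06) and of 3.43 and 2.91 (0.24). The second of these, chr19:58237788-58238386, had the same borders in both lists and the strongest IP signal of the gene. The CCI list alone had a weak peak at chr19:58237489-58237668 with a fold enrichment of 1.76. The sham list alone had 1 in the 3′-UTR, at 1.24, and 1 in the 5′-UTR, chr19:58453436-58454497, at 3.21.

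*Ngfr* had 4 shared sites, 1 higher and 3 lower in CCI. In the 3′-UTR the values were 6.6 in CCI and 12.1 in sham at chr11:95569118-95569357 (log2 ratio -0.87), 5.73 and 5.98 at chr11:95569747-95569896 (-0.06), and 10.1 and 6.86 at chr11:95570346-95571909 (0.56). In an exon further upstream they were 2.95 and 3.43 (-0.22). Neighbouring sites of the same 3′-UTR thus went in opposite directions, and no pair reached 2-fold. The CCI list had 1 more peak near the transcript end, chr11:95568908-95568968, with a fold enrichment of 5.47. At all 4 shared sites of *Ngfr* the CCI peak was narrower than its sham partner.

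*Sort1* showed a fall at its 5′ end and higher values at some of its 3′-UTR sites. At the 5′ end, chr3:108284167-108284813, the fold enrichment was 15 in CCI and 53.8 in sham (log2 ratio -1.84), and the overlapping second row had 15 and 25.4 (-0.76). The sham value of 53.8 was the highest of all member peaks, and the 2 sham rows differ by 1.08 on the log2 scale over 300 shared bases, so the pair is past 2-fold in 1 row and not in the other. The log10 p-values were -27.4 in CCI and -41.8 in sham for the first row.

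At the 3′ end of *Sort1*, 3 of the 4 shared 3′-UTR sites were higher in CCI, the smallest by only 0.01 on the log2 scale. At the last, chr3:108361242-108361451, the values were 8.84 and 4.91 (log2 ratio 0.85), and at chr3:108358699-108358938 they were 4.79 and 3.84 (0.32). The other 2 were nearly equal, 2.78 and 2.77 (0.01) and 1.43 and 1.59 (-0.15). The exon site before the 3′-UTR had values of 1.54 and 1.58 (-0.04).

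In the order of their strongest peak, the genes stood differently in the 2 lists. In sham the highest fold enrichment was 53.8 in *Sort1*, then 29.1 in *Ntrk3*, 27.9 in *Gfra1*, 25.6 in *Ret*, 22.1 in *Ntf3*, 16.3 in *Ntrk2*, 15.2 in *Bdnf* and 12.1 in *Ngfr*. In CCI it was 22.4 in *Ntrk2*, then 18.2 in *Ret*, 16.7 in *Bdnf*, 15 in *Sort1*, 12.5 in *Ntrk3*, 12 in *Ntf3*, 10.1 in *Ngfr* and 4.59 in *Gfra1*. In CCI, the peaks of *Ntrk2*, *Ret*, *Ntrk3* and *Ntf3* in this order had log10 p-values of only -6.62, -5.25, -9.62 and -3.23. The median over all CCI peaks was -16.4, and the peaks of the other genes had stronger values. Those of *Ntrk3*, *Gfra1*, *Ret*, *Ntf3* and *Ntrk2* in sham had -9.19, -13, -11.1, -5.32 and -7.27, against a median of -17.9. The sham peaks of *Sort1*, *Bdnf* and *Ngfr* had stronger values than that median. In sham, the overlapping second rows of *Sort1* and *Gfra1* had lower values, 25.4 and 8.72, so these places depend on the row read. With 1 library pair per group, whether neighbours in either order differ beyond the error is unknown.

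The 4 member pairs within the strongest 20% of all pairs by IP signal, at *Ntrk2* and *Sort1*, were all higher in CCI by 0.01 to 0.92 on the log2 scale. The 7 pairs past 2-fold were all outside that range, with 2 of the 7 pairs in the weakest 20% and 5 of the 28 pairs in between. Over all pairs, 21.1% were past 2-fold in either direction in the weakest 20% and 8.64% in the strongest 20%. The pairs nearest to the threshold were *Ntrk3* with -1.09 just past it, and *Ntrk2* with 0.92 and *Ntf3* and *Ntrk3* with -0.88 just short of it.

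**Figure D4:**
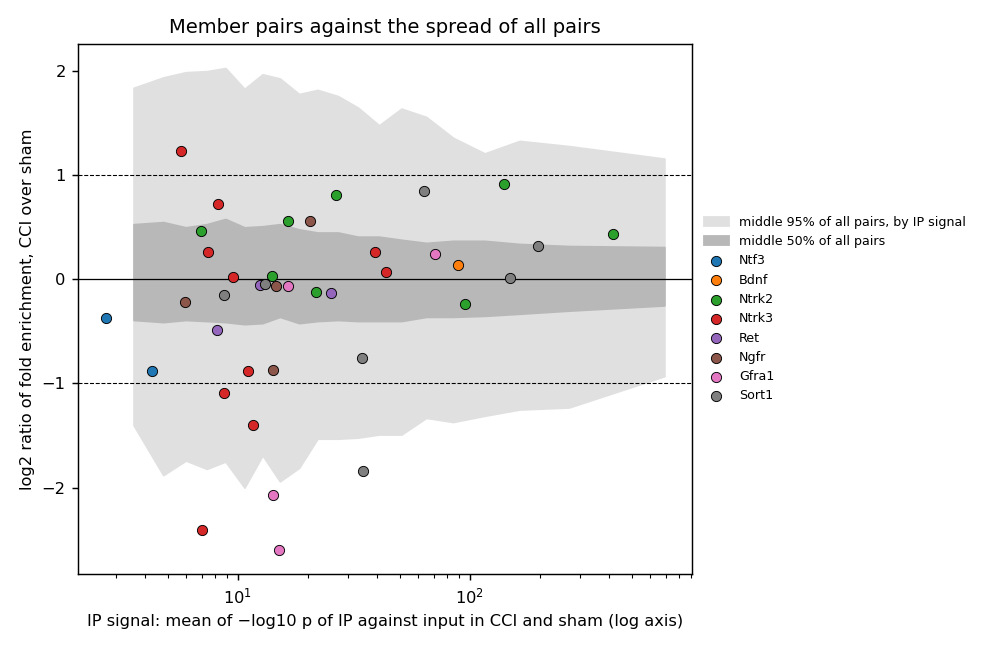
Log2 ratio of fold enrichment, CCI over sham, of the 39 member pairs (points, coloured by gene) against the IP signal, the mean of −log10 p in both lists (log axis), with the middle 95% and 50% of all 27380 pairs in 20 bins of signal as grey bands and 2-fold as dashed lines. The lowest points, of *Gfra1* (-2.60 and -2.07), *Ntrk3* (-2.41) and *Sort1* (-1.84), lie below the bands, and the other 35 lie inside the middle 95%.

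The authors' table of differential peaks held 6 rows of these genes, in *Ntrk2* (2), *Sort1* (2) and *Gfra1* (2). Thus 3 of the 8 genes with a row (37.5%) were listed, against 25.3% of all gene names. No adjustment was made for the number of peaks per gene. Both *Ntrk2* rows were within the last 6 kb of the longest transcript, at the sites with ratios of 0.44 and 0.92, and both *Sort1* rows were in the 3′-UTR, at the sites with 0.32 and 0.85. In *Gfra1*, 1 row lay over the weak peak of the CCI list alone and 1 over the 5′-UTR peak of the sham list alone. None of the 7 pairs past 2-fold had a differential row. The 4 pairs that had one were of strong IP signal, with log10 p-values in CCI between -71 and -424. The 35 pairs without one ranged from -2.58 to -137, so the ranges overlap. The authors' fold changes and p-values in this table were not used.

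Of 50 further genes of the same pathways, 41 had a row in the tables and 40 had a peak in both lists. Genes without a row included the ligands *Ntf5*, *Artn* and *Pspn*, the co-receptors *Gfra3* and *Gfral*, the adaptors *Dok4* and *Dok6*, and *Islr2*. Their 112 pairs were 59 higher and 53 lower in CCI (median log2 ratio 0.04). A pair at least 2-fold higher was found in 10 of the 40 genes (25%), against 18.2% of all genes, and one at least 2-fold lower in 5 (12.5%), against 15.5%. Counted by pair, 10 of 112 were at least 2-fold higher (8.93%), against 8.59% of all pairs, and 5 of 112 at least 2-fold lower (4.46%), against 7.25%. Of the 41, 18 were listed as differential (43.9%), against 25.3%, with no adjustment for the number of peaks per gene.

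Of the 10 genes with a pair 2-fold higher, 9 encode adaptors and effectors that act below Trk receptors and RET. This group makes up 20 of the 50 genes and holds 63 of the 112 pairs, which were 33 higher and 30 lower with a median log2 ratio of 0.03. The fold enrichment was 75.1 in CCI and 29.4 in sham at the 5′-UTR of *Grb2*, the adaptor that brings SOS to activated receptors. At the 5′-UTR of *Sos1*, a Ras exchange factor, it was 40.7 and 10.2, and at an exon of *Sos2* it was 4.04 and 1.7. *Shc2* had 101 and 45.3, *Frs3* 23.8 and 8.8, *Gab2* 22.9 and 7.36, *Sh2b3* 34.1 and 12, and *Plcg1*, which encodes phospholipase Cγ1, 3.6 and 1.56. *Shc1* went both ways within its 5′-UTR, with 20.3 and 6.08 at 1 site and 5.73 and 13.9 at another. The tenth gene was *Gfra2*, the co-receptor of neurturin, with 25 and 6.84.

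The pairs at least 2-fold lower, apart from that of *Shc1*, were at *Nrtn*, which encodes neurturin (4.69 in CCI and 17.8 in sham), *Gab1* (9.21 and 26.1), *Sdc3*, a proteoglycan that binds GDNF (15.5 and 136), and *Slitrk5*, which binds TrkB (21.9 and 84.2). Of the 15 pairs past 2-fold in these genes, 9 were 5′-UTR in both lists. How many of their 112 pairs were 5′-UTR in both lists is not given here, so this count has no base of its own. Of all 27380 pairs, 3981 were 5′-UTR in both lists. Over all pairs, 23.4% of those in the 5′-UTR of both lists were past 2-fold in either direction, against 14.8% of those in the 3′-UTR, and only the *Shc1* pair of 20.3 and 6.08 had the same borders in both lists.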

How the data were processed

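MeRIP-seq peak tables from the spinal cord of CCI and sham mice (day 7) were analysed, with 1 IP and 1 input library per group. The submitters' processing notes name fastp, HISAT2, HOMER, ChIPseeker and GRCm38, whereas the methods of the study name Cutadapt, bowtie, MACS2 and ChIPseeker, so the caller and its settings are uncertain. The deposited fold enrichment of each peak is a ratio of IP over input made by the authors. The p-value of IP against input is the authors' own, and the log10 p-value and log10 false discovery rate in the deposited tables were handled as a score. The differential table also holds the authors' log2 fold change, p-value and false discovery rate of CCI against sham, which were not used, so that it served for gene names, positions and regions only.

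Genes were matched by the gene name of each row, and all 9 symbols were found in RefSeq (GRCm38.p6), which was used for names, gene spans and overlapping genes. Peaks overlapped when their exonic blocks had 1 base or more in common, and a pair is a CCI peak and a sham peak that match each other best by the share of common bases. A change of at least 2-fold counted as called. For the IP signal, all pairs were divided into 20 bins by the mean log10 p-value of both lists. Wilson intervals have 95% confidence and cover counting error only. No filter was put on the peaks, and no test between groups was possible. All 9 genes are described in full, and of the further pathway genes those with a pair past 2-fold or with no row are named, apart from items that are not reported here. The genes and lists were chosen with earlier results of these data known. Pairing was tested on simulated lists of single-block peaks that did not overlap within a list. Overlapping rows of a list, as at *Gfra1*, *Ntrk3* and *Sort1*, were not part of that test. Sequences are not shown, since no genome sequence was used here. Tables were handled with pandas 2.3.3 and numpy 2.4.6 under Python 3.11.15, intervals were taken from scipy 1.17.1, and plots were drawn with matplotlib 3.10.9.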

Additional observations from a re-analysis of the deposited data

How the results depend on the processing

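No paired analysis was possible because there was only 1 library of each kind per group. Of 60 values recomputed under alternatives, 46 stayed within the counting interval, within 0.1 on the log2 scale or within 1.5 times the count, 14 moved further and none changed sign among called values. When 50% of both peaks had to overlap, the shared peaks were 71.4% of CCI and 76.1% of sham. The shares over all peaks under this rule are not given here. The rule left 34 pairs, of which 0 were 2-fold higher, against 8.08% of all pairs, and 4 were 2-fold lower, against 6.22%. With the strongest sham peak of each gene alone, the median log2 ratio was -0.88, with 0 pairs 2-fold higher and 3 lower. That choice uses the sham value and so leans toward lower ratios. Over all 11639 genes with a pair the same choice gave a median of -0.06, with 9.29% 2-fold higher and 12% 2-fold lower. Pairs with the same borders alone, an alternative chosen after seeing the data, gave 0 higher and 1 lower of 13. A threshold of 1.5-fold gave 5 higher and 10 lower of the 39 member pairs, against 18.8% and 16.4% of all pairs. It gave 16 and 8 genes of the wider list, and the shares of all genes at this threshold are not given here. When every gene counted once per region, the 3′-UTR share was 40% in CCI and 37.5% in sham, so the excess over all peaks was not seen. Counting overlapping rows of a list as 1, also chosen after seeing the data, left 5 lower pairs of 37, against 7.18% of all pairs. With 1 library per group and unknown depth, the error of each ratio is unknown, and inputs and peak borders differ between the lists.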

Other observations

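A group of the further pathway genes encodes proteins that work with p75NTR. All 6 genes of that group (*Maged1*, *Ngfrap1*, listed in the tables as *Bex3*, *Bex1*, *Traf6*, *Lingo1* and *Rtn4r*) had peaks in both lists. Most genes of the tables had a peak in each list, 12408 of the 13558 gene names in CCI and 12907 in sham. The 11 pairs of these 6 genes were 5 higher and 6 lower in CCI, with a median log2 ratio of -0.02 and none past 2-fold. In the differential table were 4 of the 6 genes, against 25.3% of all gene names, with no adjustment for the number of peaks per gene. The sorting receptors related to sortilin were *Sorl1*, *Sorcs1*, *Sorcs2* and *Sorcs3*, and the first 3 had peaks in both lists, with 2 pairs higher and 2 lower. *Sorcs3* had 1 peak, in sham. Of the 8 modulators of signalling and enzymes of ligand processing, 7 had peaks in both lists. Their 20 pairs were evenly split, 10 higher and 10 lower.

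Rows of a list that cover the same bases do not always carry the same fold enrichment. Of 2064 such cases in the CCI list, each row sharing at least 50% of the bases of the other, 18% had equal values to the digits deposited and 3.97% differed at least 2-fold. In the sham list the shares were 23.7% and 4.27% of 2294. The sham rows at the end of *Gfra1* (27.9 and 8.72) and at the 5′ end of *Sort1* (53.8 and 25.4) differed at least 2-fold. So did the CCI rows at the end of *Gfra1* (4.59 and 2.08) and overlapping CCI rows of *Ntrk3* (9.9 and 3.86). The other overlapping rows of the members differed by at most 0.08 on the log2 scale.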
